A study of Mus musculus with 4 samples.

Results

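The cells described here are 283 of the 6562 cells of a single-cell RNA-Seq data set of the mouse cortex. They were chosen by measured values, namely at least 1 unique molecular identifier (UMI, a tag that counts each captured transcript once) for Eomes and for Neurod1 and none for Neurog2, Top2a, Dlx1, Dlx2 and Reln. The levels of these 7 genes are therefore a description of the choice and no result. Cells whose barcode occurs in all 4 libraries were also to be left out. There were 224 such cells, and 0 of them met the conditions on genes. Cortices were taken from C57BL/6J fetuses at E18.5, 2 of them Setd5+/+ and 2 Setd5+/-, and cells positive for CD24, a neuronal surface marker, and negative for CD45, a hematopoietic one, were sorted by FACS. The Setd5+/- animals carried 1 copy of the Setd5 GFP allele, which served as a heterozygous knockout. Which part of the gene that allele removes is not stated in the sources at hand. Each fetus gave 1 droplet library. The libraries are called WT3 and WT6 (Setd5+/+) and Het5 and Het9 (Setd5+/-), and they held 69, 72, 80 and 62 of the cells. All values below follow that order, and levels are mean UMIs per 10000 UMIs of the cell.

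In the embryonic cortex, radial glia at the ventricle give rise to intermediate (basal) progenitors, which divide away from the ventricular surface and produce glutamatergic neurons. Neurog2, a proneural basic helix-loop-helix (bHLH) factor, is on at the start of that step, the T-box factor Eomes (Tbr2) marks the intermediate progenitors, and the bHLH factor Neurod1 is on as their daughters become young migrating neurons. Among the genes required at 0, Top2a is a topoisomerase of dividing cells, Dlx1 and Dlx2 are homeobox factors of cortical interneurons, and Reln encodes the reelin of Cajal-Retzius cells. On GRCm38, Eomes lies at chr9:118478212-118486132 on the + strand, Neurod1 at chr2:79452521-79456751 on the - strand and Neurog2 at chr3:127633135-127635631 on the + strand.

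Classes that differed from these cells in 1 gene of the rule, and like them had no UMI for Top2a, Dlx1, Dlx2 and Reln, served for comparison. The Neurog2 cells (553 cells: 100, 160, 158 and 135) had UMIs for Eomes, Neurod1 and Neurog2. The Neurod1 alone cells (739: 195, 166, 196 and 182) lacked Eomes and Neurog2, and the Eomes alone cells (74: 16, 19, 19 and 20) lacked Neurod1 and Neurog2. Since all classes were cut from values of the same table at 1 age, differences between them are given as descriptions with no test, and an order in time was not measured. For the log2 ratios of class levels below, the library means of a class were first averaged over the 4 libraries. The ratio was then taken between these averages with 0.1 added to each, so a single high library can weigh on it.

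The Eomes Neurod1 cells were of ordinary depth and quality for these libraries. Their median UMI count was 5147, 6053, 5748 and 5467, and over all of them 5532, with a range from 1817 to 12837. The median was 6411 in the Neurog2 cells, 5447 in the Neurod1 alone cells and 5730 over all cells. Mitochondrial UMIs made up 3.67%, 3.51%, 3.58% and 3.69% of their UMIs. Whole libraries held 8205330 to 11742956 UMIs. Scrublet called 64 cells doublets (0.975% of all cells), 1 of them an Eomes Neurod1 cell, and 4 Eomes Neurod1 cells had a barcode that occurs in 2 or 3 libraries, as 53 cells in all did.

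A zero in droplet data depends on depth, so the edge of the rule was examined. Of the 283 cells, 96 (33.9%) were inside by 1 Eomes UMI and 56 (19.8%) by 1 Neurod1 UMI. Just outside, 161 of the 553 Neurog2 cells (29.1%) held 1 Neurog2 UMI. When each cell with at least 3000 UMIs was thinned to 3000 UMIs before the rule was applied, 303 cells met it. Of these, 184 were also chosen at full depth and 85 were Neurog2 cells at full depth, so the line at Neurog2 is partly set by depth. Free RNA gave these markers a low background. Among 552 cells with 2 or more UMIs for both Dlx1 and Dlx2, interneuron-lineage cells that should lack these factors (median 4774.5 UMIs), Eomes had a UMI in 1.63%, Neurod1 in 1.81%, both in 0.362% and Neurog2 in 2.36%.

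Genes of the glutamatergic lineage that the rule did not use were present in nearly every cell. Neurod6, a bHLH factor of cortical projection neurons, had a UMI in 97.1%, 95.8%, 96.3% and 100% of the cells of the 4 libraries, 275 of 283, against 11.1% of the Dlx1 Dlx2 cells. Neurod2, its close relative, was found in 95.7%, 90.3%, 96.3% and 85.5%, against 8.33% there. Sstr2, a somatostatin receptor of intermediate progenitors and their daughters, was found in 82.6%, 86.1%, 90.0% and 88.7%, against 3.99%. These shares were high in all 4 libraries and far above the free RNA level. Tbr1, the T-box factor of early glutamatergic neurons, had a UMI in fewer cells, 53.6%, 52.8%, 57.5% and 48.4%, and Gadd45g, a growth arrest gene induced in differentiating progenitors, in 27.5%, 30.6%, 26.3% and 33.9%.

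Levels of the defining genes were alike across libraries. Eomes stood at 4.92, 4.93, 4.77 and 4.90, below the 7.17 to 7.51 of the Neurog2 cells. Neurod1 stood at 6.58, 6.99, 7.39 and 6.5, above the 4.92 to 5.94 of the Neurog2 cells and the 4.43 to 4.98 of the Neurod1 alone cells. Both genes were used by the rule, so these levels describe the choice.

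Against the Neurog2 cells, genes of neurogenic progenitors were lower. Gadd45g stood at 0.631, 0.990, 0.654 and 1.11 in the Eomes Neurod1 cells and at 2.86, 3.62, 3.65 and 3.44 in the Neurog2 cells, the largest ratio among genes that were lower (log2 ratio -1.88). The groups of libraries lay far apart. Btg2, an antiproliferative gene of neurogenic divisions, stood at 1.0, 0.709, 0.614 and 0.533 against 1.41, 1.79, 1.75 and 1.51 (-1.08), and here WT3 lay nearest to the Neurog2 cells. Hes6, a Hes family factor that promotes neurogenesis, stood at 1.58, 2.1, 1.56 and 1.53 against 2.71, 3.29, 3.22 and 3.28 (-0.85). Neurod4, a proneural bHLH factor, was at 0.0236, 0.0984, 0.0715 and 0.201 against 0.504, 0.565, 0.472 and 0.370 (-1.54). Chd7, a chromatin remodeler, stood at 1.21, 1.68, 1.09 and 1.43 against 1.74, 2.26, 2.43 and 2.25 (-0.64).

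Radial glial genes and the receptor gene Notch1 were lower too. Dbi, an acyl-CoA binding protein abundant in radial glia, stood at 2.68, 2.46, 3.1 and 2.66 against 6.64 to 6.75 (-1.27). Vim, the intermediate filament vimentin, stood at 1.22, 2.46, 1.89 and 1.68 against 3.25 to 4.82 (-1.14). Notch1 stood at 0.238, 0.153, 0.278 and 0.234 against 0.534 to 0.688 (-1.07). No library of the Eomes Neurod1 cells reached the lowest Neurog2 library for any of these 3 genes. The transcription factors Pax6 (-0.67) and Sox2 (-0.90) of radial glia and the cyclin Ccnd2 (-0.55) were also lower in all 4 libraries. Not every gene of the progenitor program differed: Sstr2 stood at 4.03, 4.69, 4.76 and 4.39 against 4.37, 4.51, 4.08 and 4.84 (0.01), and Mfap4, a matrix protein gene of intermediate progenitors, at 5.67, 6.72, 6.05 and 7.11 against 7.17, 7.88, 7.25 and 6.37 (-0.16). For both genes the libraries of the 2 classes overlapped.

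Genes of axon growth, guidance and synapses were higher than in the Neurog2 cells. Cntn2 (TAG-1), an axonal adhesion molecule, led with 0.562, 0.568, 1.02 and 0.452 against 0.119, 0.188, 0.211 and 0.161 (log2 ratio 1.47). Myt1l, a zinc finger factor that keeps neurons from other fates, stood at 1.55, 1.24, 0.901 and 1.22 against 0.325, 0.314, 0.574 and 0.360 (1.43). Lmo4, a LIM-only cofactor, was the most even of them, at 1.71, 1.73, 1.73 and 1.67 against 0.638 to 0.764 (1.20). Gria2, an AMPA receptor subunit, stood at 5.78, 4.40, 4.45 and 4.87 against 2.00 to 2.55 (1.05). Each of these 4 genes was higher in every library, with no overlap between the classes.

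Other leading genes that were higher are the following. Nrp1, a semaphorin coreceptor, was at 2.57, 3.49, 3.02 and 1.86 against 1.49, 1.56, 1.22 and 0.789 (1.05). Plxna4, a plexin that transmits the semaphorin signal, was at 1.25, 1.12, 0.931 and 1.02 against 0.398 to 0.494 (1.11). The ligand Sema3c was at 0.965, 1.07, 1.08 and 1.23 against 0.438 to 0.541 (1.01). Each of these 3 genes was higher in every library. The layer factor Bcl11b (Ctip2) was higher as well, at 1.71, 1.60, 1.38 and 1.37 against 0.600 to 0.741 (1.09), and so was the growth cone protein gene Gap43, at 1.29, 1.54, 1.30 and 0.931 against 0.410 to 0.703 (1.01). Of 3316 genes with a mean of at least 0.5 in either class, 11 were higher and 11 lower by at least 2-fold in all 4 libraries. With cells thinned to 3000 UMIs before the rule, the 15 leading genes in each direction kept their direction, but some ratios were much smaller: those of the higher genes were 0.48 to 1.56, against 0.97 to 1.47 at full depth, and those of the lower genes -1.54 to -0.38, against -1.88 to -0.88. After thinning Nrp1 was at 0.67 and Lmo4 at 0.80, while Cntn2 stayed at 1.47.

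The promoter of Myt1l is shown because it is 1 of the 2 leading higher genes, with Sema3c, whose promoter holds CAGATG, an E-box that neurogenin and NeuroD factors are known to bind. The RefSeq table on GRCm38.p6 held promoters for 10 of the 15 leading higher genes, and 2 (20%) had CAGATG on either strand in the 250 bases before and 50 after the start, against 4653 of 27025 promoters of the table (17.2%). Of the 12 matched leading lower genes, 0 had it. The T-box letters AGGTGTGA were in 0 of the 10 and 0 of the 12, against 1.27% of all promoters. The shares of the leading genes were thus close to the share of all promoters or rested on too few genes to tell. The 250 bases before the Myt1l start, chr12:29528134-29528383 on the + strand, read as follows, with the E-box (CATCTG on this strand, starting 146 bases before the gene) in capitals.
Myt1l: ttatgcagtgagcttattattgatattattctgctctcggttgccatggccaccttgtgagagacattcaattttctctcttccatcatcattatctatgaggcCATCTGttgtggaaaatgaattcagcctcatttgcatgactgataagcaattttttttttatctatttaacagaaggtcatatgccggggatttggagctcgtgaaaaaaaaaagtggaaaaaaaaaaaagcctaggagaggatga

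Against the Neurod1 alone cells the picture turned around: progenitor genes were higher and neuronal genes lower. Mfap4 stood at 5.67, 6.72, 6.05 and 7.11 against 1.69, 2.32, 1.46 and 1.40 (log2 ratio 1.84). Mdk, the heparin-binding growth factor midkine, stood at 8.44, 9.52, 8.11 and 8.76 against 3.70, 3.18, 2.37 and 2.78 (1.5). Pax6, the paired-box factor of cortical progenitors, stood at 0.703, 0.867, 0.820 and 0.982 against 0.184 to 0.294 (1.55). The lowest Eomes Neurod1 library was more than 2-fold above the highest Neurod1 alone library for each of them. Ezr, a membrane-to-actin linker (1.39), Chd7 (1.40), the zinc finger gene Zic1 (1.41) and the long noncoding RNA gene Rmst (1.88) were also higher in all 4 libraries. Notch1 was low in both classes, at 0.153 to 0.278 against 0.00854 to 0.0859 (1.11).

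The genes that were lower belong to the outgrowing neuron. Stmn2, a microtubule regulator of growth cones, stood at 2.32, 1.60, 1.49 and 1.73 against 6.18, 7.11, 7.17 and 9.51 (-2.01). Shtn1, the axon formation gene shootin1, stood at 0.0695, 0.0905, 0.122 and 0.0387 against 0.551 to 0.732 (-2.01). Class levels did not overlap for either gene. Mapt, the microtubule protein tau (-1.65), Syt4, a synaptotagmin (-1.80), and Cntn2 (-1.80) were lower likewise, and Nrp1 was at 1.86 to 3.49 against 7.04 to 8.38 (-1.44). Neurod6, by contrast, differed little from the Neurod1 alone cells and was lower in 3 of 4 libraries, at 13.4, 11.6, 14.7 and 11.3 against 13.2, 14.5, 15.8 and 14.7 (-0.19). Of 3427 genes, 31 were higher and 54 lower by at least 2-fold in all 4 libraries.

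**Figure D1:**
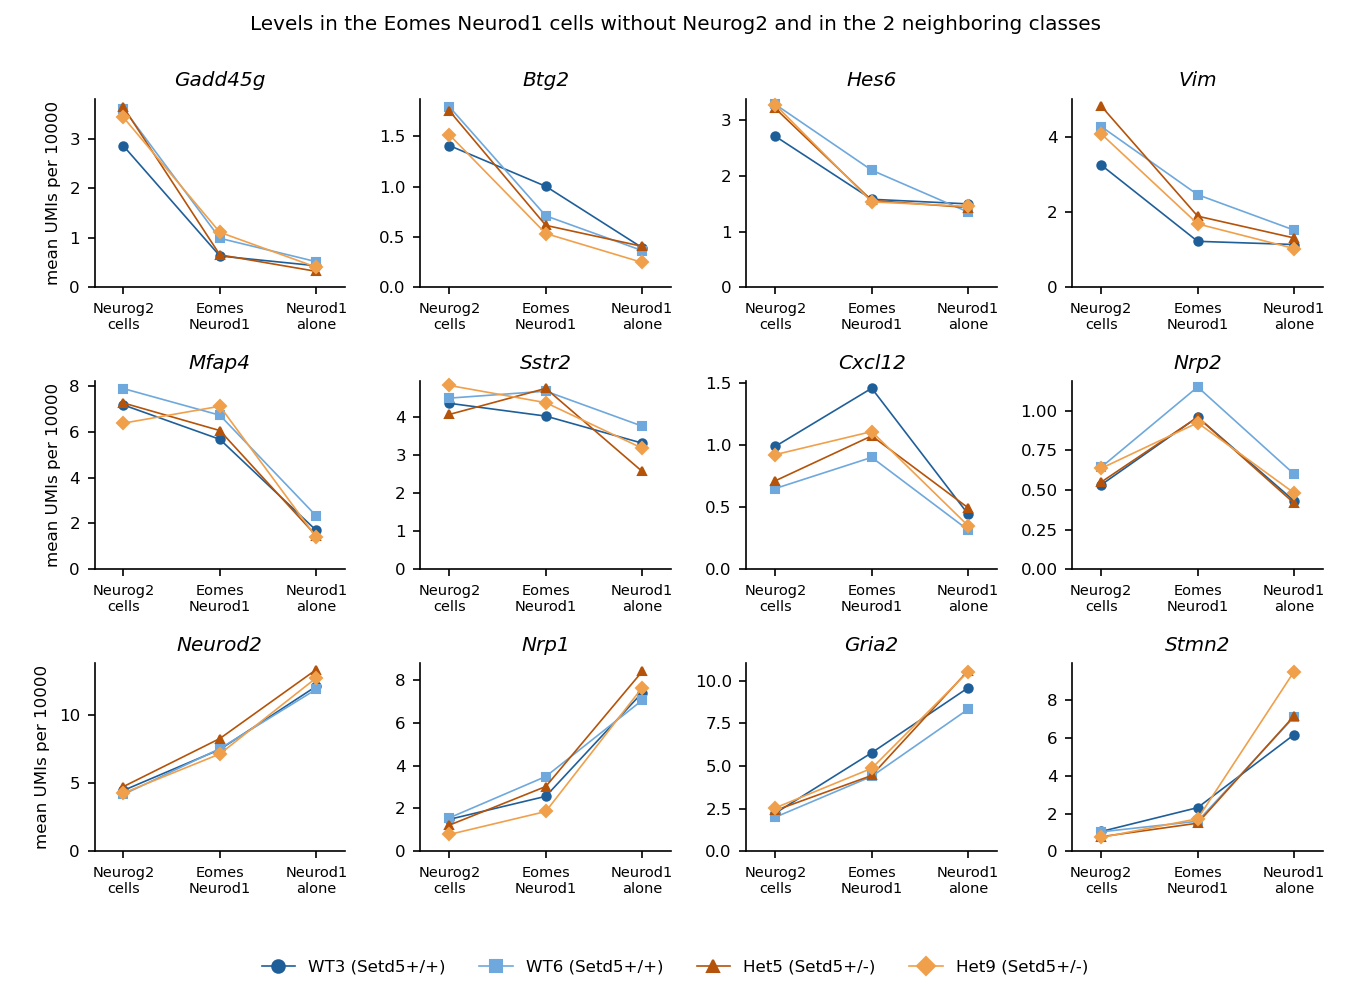
Mean UMIs per 10000 (y axis, from 0) of 12 genes in 3 cell classes (x axis), with 1 line per library (WT3 and WT6 Setd5+/+, Het5 and Het9 Setd5+/-). Gadd45g goes down from 2.86 to 3.65 in the Neurog2 cells to 0.631 to 1.11 in the Eomes Neurod1 cells, Mfap4 stays near the Neurog2 level there and is 1.40 to 2.32 in the Neurod1 alone cells, and Nrp2 is highest in the middle class in all 4 libraries.

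Lists of genes by role gave the same order. For the Neurog2 comparison, 13.7% of the 7980 genes with a mean of at least 0.1 were higher in all 4 libraries and 12.6% lower, with a median log2 ratio of 0.01. Of the 23 measured genes of the basal progenitor program, 11 were lower and 3 higher (Nhlh2, Rnd2 and Igfbpl1), with a median of -0.26. Of 13 radial glial genes, 7 were lower and 0 higher (median -0.39), and of 14 cell cycle genes 5 were lower and 0 higher (-0.35). The neuronal lists went the other way. Of 24 migration and guidance genes, 18 were higher and 0 lower (0.56), of 20 neuronal cytoskeleton and synapse genes 13 and 0 (0.66), and of 25 young glutamatergic neuron factors 14 and 0 (0.31). Of 10 measured Notch pathway genes, 3 were lower (Notch1, Hes6 and the glycosyltransferase gene Mfng) and 1 higher (Rfng). Of 11 genes of the hippocampal field, which also give a regional origin, 2 were higher and 0 lower (0.00).

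For the Neurod1 alone comparison, 13.2% of 8082 genes were higher in all 4 libraries and 17.5% lower, with a median of -0.02. Of 22 basal progenitor genes, 20 were higher and 1, the zinc finger gene Insm1, was lower (0.81). Of 22 cytoskeleton and synapse genes 1 was higher, the vesicular glutamate transporter gene Slc17a6, and 19 lower (-0.66). Of 27 migration and guidance genes 7 were higher and 16 lower (-0.40), and of 25 young neuron factors 3 were higher and 16 lower (-0.40). Hippocampal field genes were 6 higher and 1 lower of 11 (0.47), among them Zbtb20 at 8.09, 11.9, 9.94 and 10.0 against 6.10 to 7.92 (0.51). Some genes stand on more than 1 list, such as Rnd2, Nrp2 and Hes6. Depth went with the comparison with the Neurog2 cells, whose median UMI count was higher, and the share of UMIs on ribosomal protein genes was 21.4% in the Neurog2 cells, 18.9% in the Eomes Neurod1 cells and 15.8% in the Neurod1 alone cells. The part of either in these list counts was not tested, since thinning was applied to the leading genes alone.

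**Figure D2:**
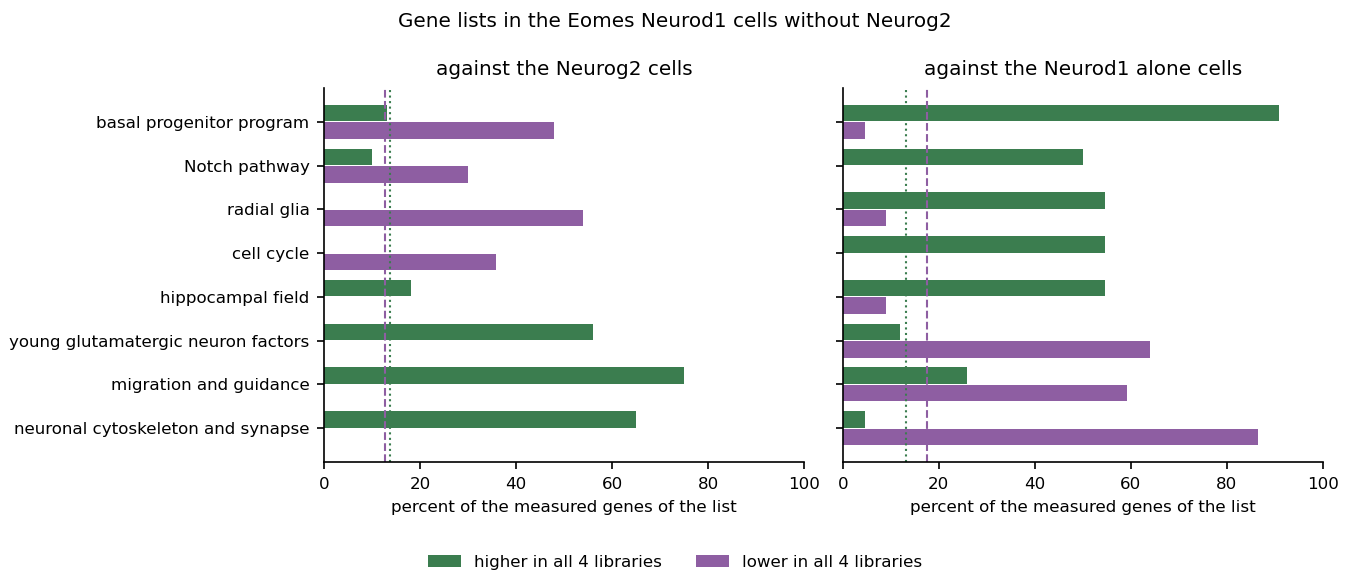
Percent of the measured genes of each list (x axis) that were higher (green) or lower (purple) in the Eomes Neurod1 cells in all 4 libraries, against the Neurog2 cells (left) and the Neurod1 alone cells (right). The dotted and dashed lines give the same percent over all genes, 13.7% and 12.6% on the left and 13.2% and 17.5% on the right, and the progenitor and neuronal lists lie past them in opposite directions in the 2 panels.

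Most of the neuronal genes stood between the neighbors. Over 8304 genes, the mean level lay between those of the Neurog2 and the Neurod1 alone cells for 49.8%, and was ordered upward through the 3 classes in all 4 libraries for 362 genes (4.36%) and downward for 287 (3.46%). Of 22 cytoskeleton and synapse genes 21 had a mean between the neighbors and 13 were ordered upward in all 4 libraries. Neurod2 shows such an order, with 4.18 to 4.76 in the Neurog2 cells, 7.49, 7.55, 8.29 and 7.16 in the Eomes Neurod1 cells and 11.9 to 13.4 in the Neurod1 alone cells. Of 23 basal progenitor genes 11 were ordered downward, and Elavl4, an RNA-binding protein gene of new neurons, went from 7.53 to 7.86 through 5.96, 5.12, 5.73 and 5.23 to 3.15 to 3.29. The sort marker gene itself was ordered too: Cd24a stood at 7.97 to 8.39, then 13.9, 14.3, 13.9 and 13.5, then 20.8 to 22.3.

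Other genes were higher in the Eomes Neurod1 cells than in both neighbors, the Neurog2 cells and the Neurod1 alone cells. Other cells were not part of this comparison, and it was not repeated after thinning. Over all 8304 genes, 2.01% were above both neighbors in all 4 libraries and 1.84% below both. Of the 27 migration and guidance genes, 5 were above both: Nrp2, Unc5d, Cdh8, Cxcl12 and Rnd2. Nrp2, a semaphorin coreceptor, stood at 0.960, 1.15, 0.959 and 0.924 against means of 0.591 in the Neurog2 cells and 0.483 in the Neurod1 alone cells. Cxcl12, the chemokine that guides interneurons and Cajal-Retzius cells, stood at 1.46, 0.900, 1.07 and 1.11 against 0.818 and 0.401. Unc5d, a netrin receptor family gene of multipolar migrating cells, stood at 2.81, 2.14, 2.40 and 2.71 against 1.60 and 2.27. Its margin over the Neurod1 alone cells was small in every library, whereas Cdh8, a cadherin, was further above them, at 0.895, 0.749, 1.04 and 1.03 against 0.442 and 0.575.

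Among 3153 genes with a mean of at least 0.5, 78 were higher in the Eomes Neurod1 cells than in both neighbors in all 4 libraries. Those named next were picked from them after their values were seen. Pcp4, a calmodulin-binding peptide gene, had the largest margin, with 7.21, 6.48, 4.29 and 6.45 against means of 2.72 and 3.49. Negr1, a cell adhesion gene of the IgLON family, stood at 1.81, 1.61, 1.66 and 1.78 against 0.947 and 1.13. Ebf1, a helix-loop-helix factor, stood at 0.480, 0.910, 0.413 and 0.710 against 0.341 and 0.317. In the opposite direction 51 genes were lower in the Eomes Neurod1 cells than in both neighbors, among them Ldha, a lactate dehydrogenase subunit (mean 1.01 against 1.89 and 1.40), and Mif, a cytokine gene (4.09 against 5.39 and 5.83).

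The 74 Eomes alone cells gave 16 to 20 cells per library, so their means are less even. Of 8334 genes, 8.56% were higher in the Eomes Neurod1 cells in all 4 libraries and 6.67% lower. Ttc39b stood at 0.526, 0.476, 0.575 and 0.423 against 0, 0, 0.0909 and 0.142 (1.92). Nhlh2, a bHLH factor of young neurons, stood at 0.702, 1.24, 1.31 and 1.20 against 0.486, 0.209, 0.125 and 0.559 (1.45). Fgfbp3, a fibroblast growth factor binding protein gene of radial glia, was lower, at 0.0832, 0.0670, 0.0745 and 0.195 against 0.988, 1.58, 0.384 and 0.476 (-2.22). Radial glial markers moved with this comparison: their summed level over 18 genes was 9.74, 10.3, 11.2 and 10.8 in the Eomes Neurod1 cells and 11.6, 47.3, 14.7 and 28.1 in the Eomes alone cells, and their part was not tested. Of 22 basal progenitor genes 8 were higher and 0 lower. After thinning, 15 of the 15 leading higher genes and 14 of the 15 leading lower ones kept their direction, the exception being the noncoding RNA gene Meg3 (-1.85, and 0.10 after thinning). The ratios of the higher genes shrank from between 1.23 and 1.92 to between 0.31 and 1.29, with Ttc39b at 0.48, and Fgfbp3 went to -0.50, so the sizes in this comparison depend on depth.

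Levels followed the count of Neurog2 UMIs within the Neurog2 cells. These were split into cells with 1 Neurog2 UMI (161), with 2 or 3 (177) and with 4 or more (215), with median UMI counts of 5962, 6165 and 6951. From the Eomes Neurod1 cells, at 0 Neurog2 UMIs, through these groups, the mean level of Gadd45g was 0.847, 1.10, 2.63 and 5.75. The mean of Dbi was 2.73, 4.11, 6.15 and 9.10. That of Pcp4 went down, with 6.11, 5.15, 2.61 and 0.886, and so did that of Gria2, with 4.87, 3.30, 2.65 and 1.25. The place of the Eomes Neurod1 cells at the end of this series was fixed by the rule, which asked for 0 Neurog2 UMIs. Sstr2 showed no such order (4.47, 4.8, 4.46 and 4.16).

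Within the Eomes Neurod1 cells, levels also went with the number of Eomes UMIs. Cells with 1, 2, 3 and 4 or more Eomes UMIs numbered 96, 69, 41 and 77, with median UMI counts of 5142.5, 5147, 5714 and 6570, so the bins are partly bins of depth. The mean level of Neurod2 over libraries was 9.87, 7.93, 6.15 and 5.57 across them, next to 12.5 in the Neurod1 alone cells, which have no Eomes UMI. Stmn2 had 3.0, 1.63, 1.28 and 0.507, next to 7.49. Nrp1 was 4.23 at 1 Eomes UMI and 1.97, 1.98 and 1.95 in the other bins. The bins and the Neurod1 alone class were both made from Eomes UMIs, which the rule used, so this order is a description of the choice. Gadd45g was 0.509, 0.719, 1.38 and 1.20 and uneven between libraries, while Sstr2 had no such order (4.45, 4.45, 4.93 and 4.03). A split by Neurod6 says little, since 8 cells lacked it and none of those was in Het9.

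**Figure D3:**
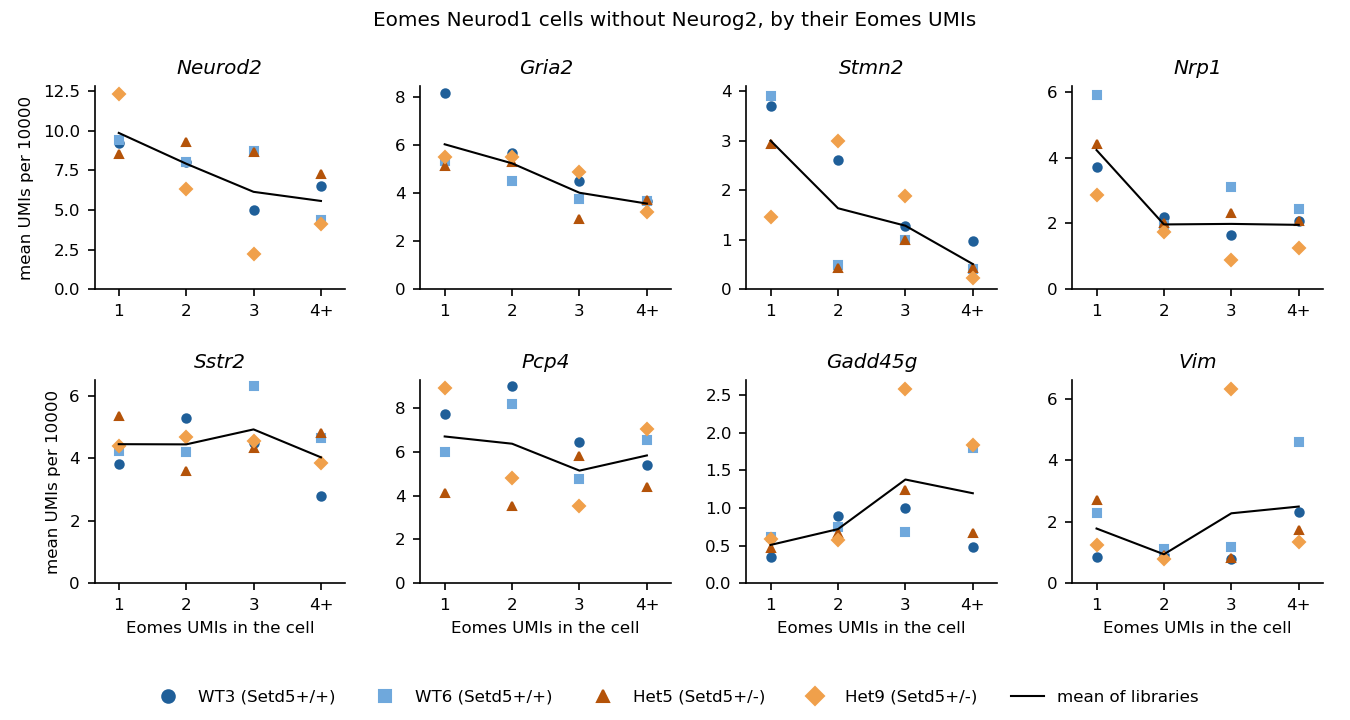
Mean UMIs per 10000 (y axis) of 8 genes in the Eomes Neurod1 cells by the number of Eomes UMIs in the cell (x axis). Points are libraries and the black line is their mean, which goes from 9.87 to 5.57 for Neurod2 and from 3.0 to 0.507 for Stmn2 and shows no such order for Sstr2.

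The cells varied among themselves. At 3000 UMIs per cell, the ratio of variance to mean had a median of 0.993 over 4282 genes, the value of counting noise alone being near 1. Stmn2 had ratios of 2.47, 5.61, 2.93 and 3.81 and Pcp4 of 2.92, 3.02, 2.99 and 2.27, so both varied in every library. The following splits were chosen after these values were seen. For Stmn2, 279 of 3444 genes were higher and 284 lower in all 4 libraries in the cells with a UMI, whose median depth was 4964 UMIs against 5657 in the others. Some genes take the same direction in all 4 libraries without any difference. How many would do so was not measured, so such counts do not show subgroups. The 88 cells with a Stmn2 UMI had more Mapt than the 195 without, at 1.71, 1.60, 2.18 and 1.37 against 0.859, 0.243, 0.317 and 0.376. Their Eomes level was lower, at 4.86, 4.11, 3.76 and 3.77 against 4.95, 5.25, 5.13 and 5.48, and nearly equal in WT3. Eomes was used by the rule, so its level in this split is a description of the choice. For Pcp4, 258 of 3445 genes were higher and 300 lower, with median depths of 5703.5 and 5053 UMIs, and the genes named here lead these splits or were listed for them. The 194 cells with a Pcp4 UMI had more Cldn3, a claudin gene, than the 89 without, at 0.684, 0.950, 1.0 and 1.11 against 0.288, 0.307, 0.214 and 0.0904. They had less of the POU factor Pou3f2 (Brn2), at 2.50, 1.55, 2.24 and 2.45 against 6.20, 3.78, 3.51 and 4.65, and less of the upper-layer factor Cux2, at 0.227, 0.273, 0.270 and 0.174 against 0.840, 0.599, 0.33 and 0.323. Mfap4 was higher in the cells with Pcp4 in all 4 libraries, whereas Neurod2 and Neurod6 were not higher or lower in all 4.

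Markers of other cell types were mostly at or near 0, with exceptions. With Gad1, Gad2, Olig1, Mki67 and Aldoc also required at 0, 61, 67, 64 and 57 cells remained, of 69, 72, 80 and 62. Zic1 and Ebf1 stood above both neighboring classes in all 4 libraries. The 6 olfactory bulb projection neuron genes had summed levels of 9.79, 11.8, 11.9 and 12.6, against 10.8 to 12.4 in the Neurog2 cells. All 5 oligodendrocyte lineage genes were at 0. Of 19 interneuron and subpallial genes, Sst was at 0, and the summed level of 4.20, 4.38, 2.35 and 2.93 was mainly Nr2f2, Zic1 and Ebf1, with Gad1 at 0 to 0.0620. Of 10 Cajal-Retzius genes, Ebf2 and Wnt3a were at 0, Trp73 averaged 0.00617, and the summed level of 0.766, 1.45, 1.65 and 2.12 was mainly Nhlh2, which intermediate progenitors also express. Of 19 immune, vascular, red cell and pigment cell genes, 6 were at 0 (Cldn5, Col1a1, Kdr, Pecam1, Pmel and Ptprc), and the rest was nearly all globin RNA, with a summed level of 16.7, 65.5, 4.29 and 13.8. A single WT6 cell held 5037 globin UMIs, against 9 in the next, and a single WT3 cell 334 against 13. The highest cell of Het5 had 8 and that of Het9 had 30. The high globin levels of WT6 and WT3 thus came mainly from 2 cells, while the median cell held 3, 3, 2 and 7.5 globin UMIs, and the Cd45 gene Ptprc was at 0 in every library.

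The share of Eomes Neurod1 cells among all cells differed between genotypes by less than the spread of the libraries at full depth. It was 4.75%, 3.68%, 4.68% and 4.29%, with exact 95% binomial intervals of 3.71% to 5.97%, 2.89% to 4.62%, 3.73% to 5.79% and 3.31% to 5.47%, which cover counting error only. The means were 4.22% in Setd5+/+ and 4.48% in Setd5+/- (difference 0.268 percentage points, exact two-sided permutation test, p = 1.0). Among cells with Eomes and Neurod1 and none of Top2a, Dlx1, Dlx2 and Reln (169, 232, 238 and 197 cells), those without Neurog2 made up 40.8%, 31.0%, 33.6% and 31.5%, with means of 35.9% and 32.5% (difference -3.39 points, exact permutation, p = 1.0). WT3 was the highest, and the other 3 libraries lay within 3 points of each other. Thinning to 3000 UMIs left out the cells below that depth, so the first share then had a smaller base than at full depth. It was 4.66% and 5.48% of the cells with at least 3000 UMIs (0.828 points, exact permutation p = 0.33, with 5.11% and 4.20% against 5.44% and 5.53% and no overlap). The second share was 49.8% and 48.9% of the Eomes and Neurod1 cells so defined after thinning (-0.946 points). With 2 libraries against 2, the test cannot give a p under 0.33. The difference in the share of all cells was -0.264 points without WT6, and that among the Eomes and Neurod1 cells so defined 1.51 points without WT3, so the direction of both rested on single libraries. With Gad1, Gad2, Olig1, Mki67 and Aldoc also required at 0, the second share was 40.4% and 32.2% against 31.2% and 31.0%, without overlap (-5.21 points, exact permutation p = 0.33).

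**Figure D4:**
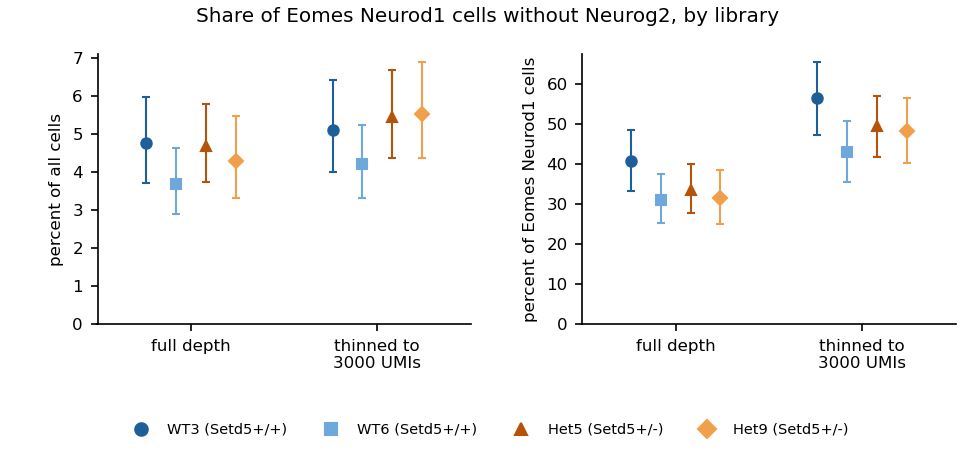
Percent of all cells (left) and of cells with Eomes and Neurod1 and none of Top2a, Dlx1, Dlx2 and Reln (right) that were Eomes Neurod1 cells without Neurog2, by library, at full depth and after thinning each cell to 3000 UMIs. Cells under 3000 UMIs are left out of the thinned shares, also in the left panel. Bars are exact 95% binomial intervals, and the libraries of the 2 genotypes overlap in the left panel at full depth (3.68% to 4.75%) and in the right panel at both depths.

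Shares of these cells with a UMI of a given gene did not separate the genotypes beyond what 2 libraries each can show either. Btg2 was found in 44.9% and 31.9% of the Setd5+/+ cells and 28.8% and 30.6% of the Setd5+/- cells, a difference of -8.74 points (exact permutation, p = 0.33, the smallest possible). After thinning to 3000 UMIs its means were 25% and 19.6%. Sstr2 also reached that p, with 84.4% against 89.4%, but its means were 73.5% and 70.1% after thinning. Tbr1 had means of 53.2% and 52.9%, and of 29.3% and 37.6% after thinning. Unc5d had means of 71.6% and 71.1%, and of 41.8% and 46.3% after thinning.

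The study asked what loss of 1 Setd5 copy does in developing cortical neurons, so the targeted gene comes first. Setd5, which encodes a SET-domain chromatin protein (chr6:113077365-113153435, + strand), stood at 1.09 and 1.26 in the Setd5+/+ libraries and 0.696 and 0.339 in the Setd5+/- ones. The groups did not overlap, and the log2 difference was -1.11 ± 0.25 (SE), which did not pass (limma, adjusted p = 0.0596). The difference passed in the larger Neurog2 class, at 1.33, 1.21, 0.416 and 0.614 (-1.17, limma, adjusted p = 0.00027), and in the Neurod1 alone cells, at 1.18, 0.997, 0.504 and 0.534 (-0.94, limma, adjusted p = 0.00153). Setd5 thus went with the genotype labels. Whether its 3′ tags lie in the part the allele removes is not stated there.

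Few genes were called between genotypes in the Eomes Neurod1 cells, which with 2 libraries against 2 does not show that the other genes did not differ. Of 7618 genes tested with limma on library means, 9 were called at an adjusted p under 0.05 (0.118%), 2 higher in Setd5+/- (0.0263%) and 7 lower (0.0919%), and 386 had an unadjusted p under 0.05. Groups that did not overlap made up 17.2% of the genes with Setd5+/- higher and 16.7% with it lower. The fetuses of each genotype are the replicates, 2 against 2.

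Of the 9 genes, 4 were sex-linked. Xist, the RNA that silences the second X chromosome of females, stood at 18.3, 20.5, 0.0122 and 0 (limma, adjusted p = 2.14e-28), and its antisense gene Tsix at 0.576, 0.766, 0 and 0 (limma, adjusted p = 1.09e-06). The Y-linked genes Eif2s3y, a translation initiation factor gene, and Ddx3y, an RNA helicase gene, were the 2 that were higher, at 0, 0, 0.782 and 0.663 (limma, adjusted p = 4.72e-07) and 0, 0, 0.504 and 0.683 (limma, adjusted p = 3.68e-06). X-inactivation RNA was thus found in the Setd5+/+ libraries and Y-linked RNA in the Setd5+/- libraries, so fetal sex and genotype cannot be told apart in any comparison of these libraries.

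A further 4 were globin genes. Hbb-bs, the leading beta globin gene here, stood at 7.34, 33.6, 2.33 and 6.81 (log2 difference -1.95, limma, adjusted p = 0.000495), and Hbb-bt, Hba-a1 and Hba-a2 had differences of -2.42, -2.16 and -1.78. WT6 was far above the other libraries in all of them. Without the 2 cells that held 100 or more globin UMIs, the difference was 0.10 for Hbb-bs, 0.31 for Hbb-bt, 0.39 for Hba-a1 and 0.58 for Hba-a2, none called, and 4 genes were called in all, the sex-linked ones.

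The last of the 9 was Nr2f2 (COUP-TFII, chr7:70351944-70366735, - strand), a nuclear receptor of caudal interneurons and of caudal and medial cortex. It stood at 2.13, 1.64, 0.694 and 1.08, with both Setd5+/- libraries below both Setd5+/+ ones (-1.03 ± 0.21 SE, limma, adjusted p = 0.0215). The call depended on the setting: it was made in 7 of 13 alternatives, with differences from -1.31 to -0.24, and was lost without WT3 (-0.84, limma, adjusted p = 0.288), without Het5 (-0.74, limma, adjusted p = 0.676), without the 2 globin-rich cells (-0.97, limma, adjusted p = 0.0705) and after thinning (-0.24, limma, adjusted p = 0.993). Of these, thinning moved the difference the most. The fits without WT3 or Het5 have a genotype of 1 library, which is assumed to vary like the other genotype. It was also lost with a pseudocount of 0.01 (-1.10, limma, adjusted p = 0.0631) and with Eomes at 2 or more UMIs (-1.11, limma, adjusted p = 0.0745). Its levels in the Neurog2 cells were 1.23, 1.38, 1.12 and 1.21 (-0.15, limma, adjusted p = 0.995). The difference between these 2 effects was -0.87 (limma, adjusted p = 0.916). The summed level of the interneuron and subpallial list, of which Nr2f2 is a member, moved with it (4.20, 4.38, 2.35 and 2.93), while Gad1 and Gad2 were at 0.175 or less in all libraries. The part of such cells was not tested.

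**Figure D5:**
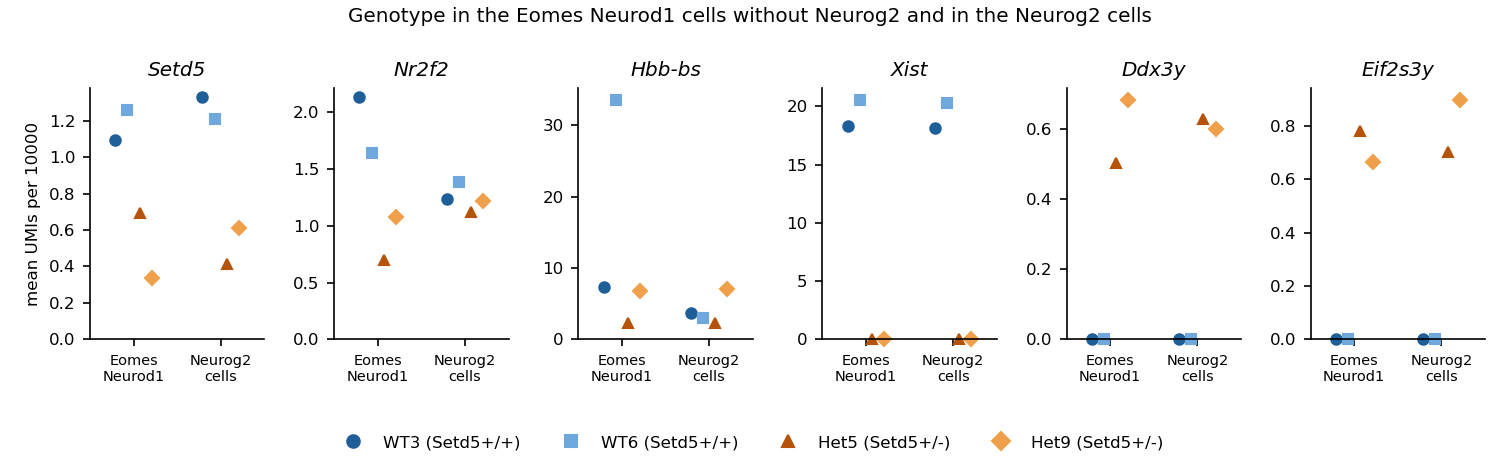
Mean UMIs per 10000 (y axis, from 0) of 6 genes in the Eomes Neurod1 cells and the Neurog2 cells, with 1 point per library. Setd5 is lower in Het5 and Het9 in both classes, Nr2f2 in the Eomes Neurod1 cells is at 2.13 and 1.64 in Setd5+/+ and at 0.694 and 1.08 in Setd5+/-, and Hbb-bs is high in the Eomes Neurod1 cells of WT6 (33.6).

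Apart from Nr2f2 on the interneuron and subpallial list, no gene of the developmental lists was called. In the basal progenitor program 22 genes were tested and 0 called, with 3 higher and 3 lower without overlap and a median log2 difference of 0.08, against 0.00193 over all genes tested. Insm1, a zinc finger factor of intermediate progenitors, stood at 0.519, 1.03, 1.09 and 1.38 (0.67 ± 0.24 SE, limma, adjusted p = 0.850). Tac2, a tachykinin gene, stood at 1.69, 0.966, 0.821 and 0.441 (-0.97 ± 0.25, limma, adjusted p = 0.236). Groups did not overlap for either gene, and both were called when WT6 was left out. In that fit the Setd5+/+ group is WT3 alone, the most extreme library for both genes, and is assumed to vary like the Setd5+/- pair. Tac2 was also called after thinning to 3000 UMIs and with recovered UMIs summed per library. The young neuron factors (25 tested), migration and guidance (24), cytoskeleton and synapse (20), Notch (10), radial glial (11), cell cycle (11) and hippocampal (11) lists each had 0 called. Among 13 tested genes of Setd5 and its partners in the NCoR and PAF1 complexes 0 were called, with 2 higher and 2 lower without overlap.

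Of 13 genes that the study named for 1 of its own clusters, a list chosen on these samples, 9 could be tested here and 0 were called. The study characterized that cluster by Dlx1 and Dlx2, which the rule required at 0, so its cells are of another kind. It also compared genotypes within that cluster, whereas the test here had 1 value per fetus. The absence of calls therefore does not bear on the study's result. The zinc finger gene Zic1 stood at 0.713, 1.27, 0.669 and 0.599 (-0.53 ± 0.25 SE, limma, adjusted p = 0.962), and the cyclin gene Ccnd2 at 5.63, 4.11, 4.47 and 4.04, with overlap. Immediate early and heat shock genes (5 tested) and Cajal-Retzius genes (3 tested) also had 0 called.

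No gene was called for a genotype difference that differed between the Eomes Neurod1 cells and the Neurog2 cells. With 2 libraries against 2 this does not show that the effects were alike. Of 7646 genes, 0 (0.0%) had an adjusted p under 0.05 for that difference with limma, 399 had an unadjusted p under 0.05, and the lowest adjusted p was 0.916. For Setd5 the difference between the effects was 0.06 (limma, adjusted p = 0.999). The genotype comparison called 9 of 7613 genes in the Neurog2 cells and 12 of 7709 in the Neurod1 alone cells. Without cells of 100 or more globin UMIs it called 4 genes in the Eomes Neurod1 cells. That setting left the fit in the Neurog2 cells unchanged, with the same 9 called, so the 2 counts do not show a difference between the classes.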

How the data were processed

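The study sorted CD24+ CD45- cells of the cortex from 4 fetuses, 2 per genotype, and sequenced single cells. What the authors deposited is on a natural log scale, ln(1 + UMIs of the gene per 10000 in that cell), for 16600 genes and 6562 cells. The submitters' processing notes name mm10, Cell Ranger 2.1 and Seurat 2.3.0. For the cell filters, annotation and strand setting, nothing is given in the sources used here. Cell names carry a library prefix, which gave the genotype. Whole UMIs were recovered for 100% of the 14848520 values above 0 (tolerance 0.001).

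The members, the lists and the named genes were chosen with earlier results of these data known. Named genes were the rule's genes, Setd5, the lists, the 15 leading genes per class and direction with a mean of at least 0.5, and all called genes; others were picked after their values were seen, as stated. Values were taken out of the log and averaged over cells per library. Genotypes were compared with limma 3.58.1 (R 4.3.3, trend) on log2(mean + 0.1) for genes with a mean of at least 0.1, without the 7 genes of the rule, with Benjamini-Hochberg adjustment at 0.05. The difference of genotype effects was tested likewise on within-library class differences. The interval of a share was the exact binomial one and shares were tested by exact permutation. Tests had 1 value per fetus. Doublets were called by Scrublet (scanpy 1.11.5) and kept. The procedure was tested on simulated data. Python 3.11.15 with numpy 2.4.6, scipy 1.17.1, pandas 2.3.3 and matplotlib 3.10.9 was used. Positions of genes come from GENCODE M21 (GRCm38).

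Alternatives changed the pseudocount to 0.01 or 1, dropped the filter on low means, left out 1 library at a time, or used cells thinned to 3000 UMIs, Eomes at 2 or more UMIs, doublets left out, further genes at 0, recovered UMIs summed per library and, added after seeing the data, cells with 100 or more globin UMIs left out.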

Additional observations from a re-analysis of the deposited data

How the results depend on the processing

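The number of genes called between genotypes was 9. It was 15 with cells thinned to 3000 UMIs, 4 without the cells of 100 or more globin UMIs (an alternative chosen after seeing the data) and 9 to 19 with each library left out. In the other alternatives it was 7 to 13. Xist, Tsix, Eif2s3y and Ddx3y were called in all 13 alternatives. Leaving out WT6 added 10 genes, among them Insm1 and Tac2 (Tac2 also after thinning and with summed UMIs), and leaving out Het5 lost Nr2f2 and the 4 globin genes. Setd5 was called in 4 of 13, with differences from -1.54 to -0.53. Without the globin-rich cells the globin differences turned to 0.31 (Hbb-bt), 0.10 (Hbb-bs), 0.39 (Hba-a1) and 0.58 (Hba-a2), which rests on the 2 cells removed. The count of genes called for a genotype effect unlike that in the Neurog2 cells was 0 in all alternatives run. The difference in the share of all cells was -0.264 to 0.800 points with each library left out, -0.264 being without WT6, and -1.99 points as a share of cells with an Eomes UMI and none for Top2a, Dlx1, Dlx2 and Reln (exact permutation, p = 0.667). The share without Neurog2 differed by -8.29 to 1.51 points with each library left out, 1.51 being without WT3, and by -5.21 points with Gad1, Gad2, Olig1, Mki67 and Aldoc also at 0. Fits that leave out a library have a genotype of 1 library, assumed to vary like the other. The cause of these turns was not tested. No paired analysis was possible because the cell columns carry no replicate numbers of the labels. Depth limits the zeros of the rule, since 85 of the 303 cells chosen after thinning held Neurog2 at full depth, and 2 fetuses per genotype of unlike sex limit every genotype comparison.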
